A study of Mus musculus with 6 samples.

Results

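Myelin-associated inhibitors and the neuronal receptors that read them were followed in the RNA-Seq of retinal ganglion cells (RGCs) after overexpression of Ezh2-Y726D. The set holds 10 genes, taken by symbol from a list of ligands and receptors with no threshold on measured values, although earlier results of these data were known when it was drawn up. All 10 were found among the 32371 genes of the deposited count table. The ligands are Omg, Tnr, Rtn4 and Mag, and the receptors are Rtn4r, Rtn4rl1, Lingo1, Lingo2, Lingo3 and Ptprs. Adult C57BL/6J mice (6 to 10 weeks old) received AAV2-GFP or AAV2-Ezh2-Y726D by intravitreal injection, and the nerve was crushed 2 weeks later. Retinal cells that carry CD90.2, the product of Thy1, were sorted 3 days after the optic nerve crush (ONC), and each group comprised 3 libraries. Both groups thus shared the vector serotype, the surgery and the injury and differed in the overexpressed gene, which in the treated group was a catalytically dead form of the histone methyltransferase Ezh2. The labels do not say whether libraries came from separate mice, so the spread between libraries, and every P value that rests on it, may be partly technical.

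Axons of the adult central nervous system grow poorly on myelin and scar. Nogo (encoded by Rtn4), myelin-associated glycoprotein (Mag) and oligodendrocyte myelin glycoprotein (Omg) bind the Nogo receptor (Rtn4r), a surface protein without a cytoplasmic part that signals through partners such as Lingo1 and the neurotrophin receptor p75 to the small GTPase RhoA. Tenascin-R (Tnr) is an inhibitory matrix glycoprotein, and the receptor phosphatase Ptprs and the Nogo receptor homologue Rtn4rl1 bind chondroitin sulfate proteoglycans of the scar. Lingo2 and Lingo3 are paralogs of Lingo1. The ligands are best known from oligodendrocytes, but neurons make several of them as well.

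RefSeq promoters (build GRCm38.p6, 250 bases before to 50 bases after a start) were found for 8 of the 10 members and not for Omg and Rtn4rl1. They are shown for the Lingo genes, so that the paralogs can be compared, and for Tnr as a ligand with few CG pairs. They were chosen with the results known. The pair CG, which reads the same on both strands, is in capitals.
Tnr, chr1:159523519-159523818, plus strand: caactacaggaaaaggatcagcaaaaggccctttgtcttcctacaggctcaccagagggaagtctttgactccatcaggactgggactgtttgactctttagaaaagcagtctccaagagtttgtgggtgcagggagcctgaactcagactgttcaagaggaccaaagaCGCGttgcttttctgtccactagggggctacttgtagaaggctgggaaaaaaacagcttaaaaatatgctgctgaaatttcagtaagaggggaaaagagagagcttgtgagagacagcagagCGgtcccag
Lingo2, chr4:35845155-35845454, minus strand: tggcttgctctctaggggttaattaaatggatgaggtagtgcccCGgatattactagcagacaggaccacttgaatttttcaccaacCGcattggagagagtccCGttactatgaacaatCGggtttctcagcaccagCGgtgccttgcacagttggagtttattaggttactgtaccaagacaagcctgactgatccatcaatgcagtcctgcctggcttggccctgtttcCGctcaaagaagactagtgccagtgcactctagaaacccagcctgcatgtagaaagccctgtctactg
Lingo2, chr4:36718914-36719213, minus strand: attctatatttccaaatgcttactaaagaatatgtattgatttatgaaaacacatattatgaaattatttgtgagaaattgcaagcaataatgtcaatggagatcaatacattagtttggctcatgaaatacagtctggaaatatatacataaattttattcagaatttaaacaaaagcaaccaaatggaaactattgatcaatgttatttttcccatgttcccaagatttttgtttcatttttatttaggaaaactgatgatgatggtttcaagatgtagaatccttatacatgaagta
Lingo1, chr9:56796261-56796560, minus strand: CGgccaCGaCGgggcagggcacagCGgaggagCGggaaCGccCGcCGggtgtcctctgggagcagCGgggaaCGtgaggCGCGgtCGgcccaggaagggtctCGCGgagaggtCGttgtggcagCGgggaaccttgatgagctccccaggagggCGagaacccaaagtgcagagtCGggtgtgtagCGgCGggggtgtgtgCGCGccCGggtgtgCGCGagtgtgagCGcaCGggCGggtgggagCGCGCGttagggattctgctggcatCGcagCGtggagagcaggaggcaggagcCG
Lingo3, chr10:80843990-80844289, minus strand: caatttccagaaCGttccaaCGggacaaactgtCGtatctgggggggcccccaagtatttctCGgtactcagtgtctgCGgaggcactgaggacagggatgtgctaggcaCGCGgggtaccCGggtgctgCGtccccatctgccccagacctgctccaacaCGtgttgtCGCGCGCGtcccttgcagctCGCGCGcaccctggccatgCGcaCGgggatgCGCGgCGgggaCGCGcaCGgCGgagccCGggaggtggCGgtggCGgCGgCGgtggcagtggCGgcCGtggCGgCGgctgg
The promoter of Tnr held 3 CG pairs and those of Lingo2 held 6 and 0, whereas the promoters shown for Lingo1 and Lingo3 held 35 each. Both Lingo2 promoters lie inside the gene, away from its outermost annotated start at 36951747. Those shown for Lingo1 and Lingo3 span the outermost annotated start of their gene, so the starts compared are unlike. Lingo1 and Lingo3 each have another promoter in the table, with 32 and 28 pairs, and the richer of the pair is shown. Over all 32851 promoters of the same length the median was 7, and 6.95% held at least 35. The promoters of Mag, which was not called, held 3, 6 and 3, those of Rtn4, also not called, held 15, 35 and 1, and those of Ptprs, which was called higher, held 18 and 21. No relation between CG content and the calls was tested. The promoter of Rtn4r held 47, a number reached by 1.44% of all promoters. The share of promoters with at least 3 pairs was 76.7%, so the Tnr promoter lies in the lower part of the range. These counts describe sequence only. No binding or methylation was measured in these libraries.

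The counts were scaled with TMM, edgeR's trimmed mean of M values, and levels are given as CPM, the counts of a gene per mega-count of the scaled library. Calling a gene required an adjusted P below 0.05 in the quasi-likelihood F test of edgeR, with Benjamini-Hochberg correction across all 18138 genes left by a filter on low counts. A DEG in addition changed by more than 1.5-fold. Total counts ran from 9333244 to 23782520 per library. The rRNA gene CT010467.1 made up 50.9% of GFP replicate 2 and 52.2% of GFP replicate 3 and at most 16.1% in any other library, so those GFP libraries measured low genes with the least precision. Ezh2, the check of the labels, measured 22.7, 23.8 and 26.3 CPM in the GFP libraries, against 65.2, 65.5 and 65.1 CPM for Ezh2-Y726D. The counts do not tell vector from endogenous transcripts. Changes are relative to TMM: scaling by total counts, rRNA included, shifted the median of all genes by 0.49 on the log2 scale, and then no member passed the test.

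Of the 10 members, 5 rose after Ezh2-Y726D overexpression, which were the ligands Omg and Tnr and the receptors Lingo1, Lingo2 and Ptprs. Over all genes tested 13.9% were called higher. No member was called lower by edgeR, where 13.6% of all genes were, although 1 member, Rtn4rl1, was lower at an unadjusted P under 0.05. DESeq2 likewise called 0 members lower. Lingo2 alone was a DEG, among 2.52% of all genes that were DEGs in this direction. The median log2 fold change of the members was 0.20, against 0.00 over all genes tested. The libraries of the groups did not overlap for 6 of the 10 members, 5 of them higher after Ezh2-Y726D. Over all genes tested, 38.6% showed no overlap in either direction and 19.7% were higher without overlap.

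**Figure D1:**
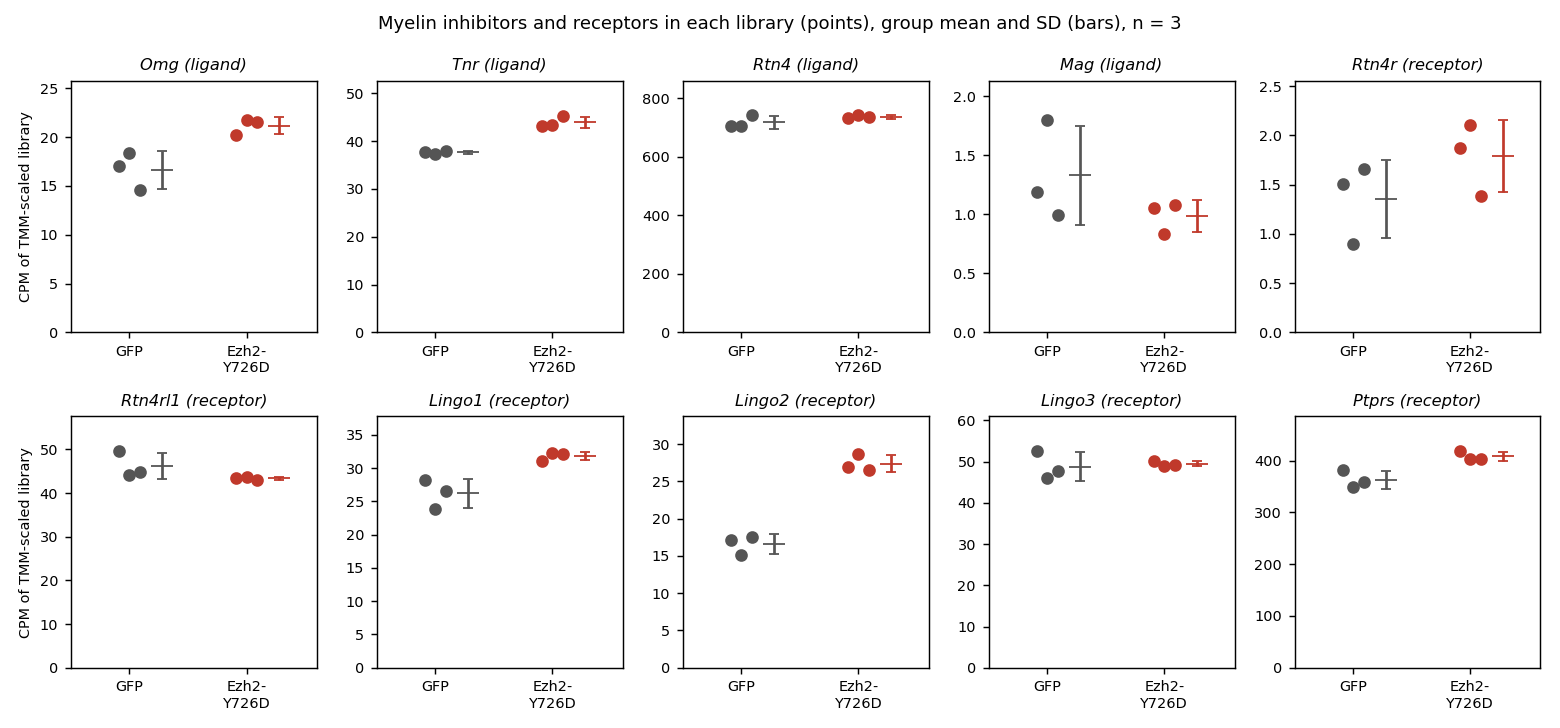
CPM of the TMM-scaled library (y axes, each from 0) of the 10 members in the GFP and Ezh2-Y726D groups. Points are libraries and bars the mean and SD of 3 libraries. The Ezh2-Y726D points of Omg, Tnr, Lingo1, Lingo2 and Ptprs lie above all GFP points, and those of Rtn4rl1 below them.

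The genes differed widely in level. Per kilobase of exonic sequence, Rtn4 was the highest of the members with 103 ± 3.07 CPM per kb in GFP (SD, n = 3 libraries) and 105 ± 0.985 CPM per kb after Ezh2-Y726D. It stood at the 99.3rd percentile of the mean levels of all genes tested. Ptprs followed with 24.2 ± 1.17 CPM per kb in GFP and was separate from its neighbours in every library. Lingo3 (13.7 ± 0.972 CPM per kb) and Rtn4rl1 (13.1 ± 0.866 CPM per kb) came next, and their GFP libraries overlapped. Omg was at 7.48 ± 0.871, Lingo1 at 5.55 ± 0.471, Tnr at 2.93 ± 0.0226 and Lingo2 at 2.00 ± 0.160 CPM per kb in GFP (SD, n = 3 libraries each). Rtn4r (0.699 ± 0.206 CPM per kb) and Mag (0.326 ± 0.104 CPM per kb) were the lowest, at percentiles 20.0 and 5.70 of all genes tested. The order of the group means was the same after Ezh2-Y726D. There Lingo3 and Rtn4rl1 no longer overlapped, while Tnr (3.35 to 3.52 CPM per kb) and Lingo2 (3.19 to 3.45 CPM per kb) did.

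**Figure D2:**
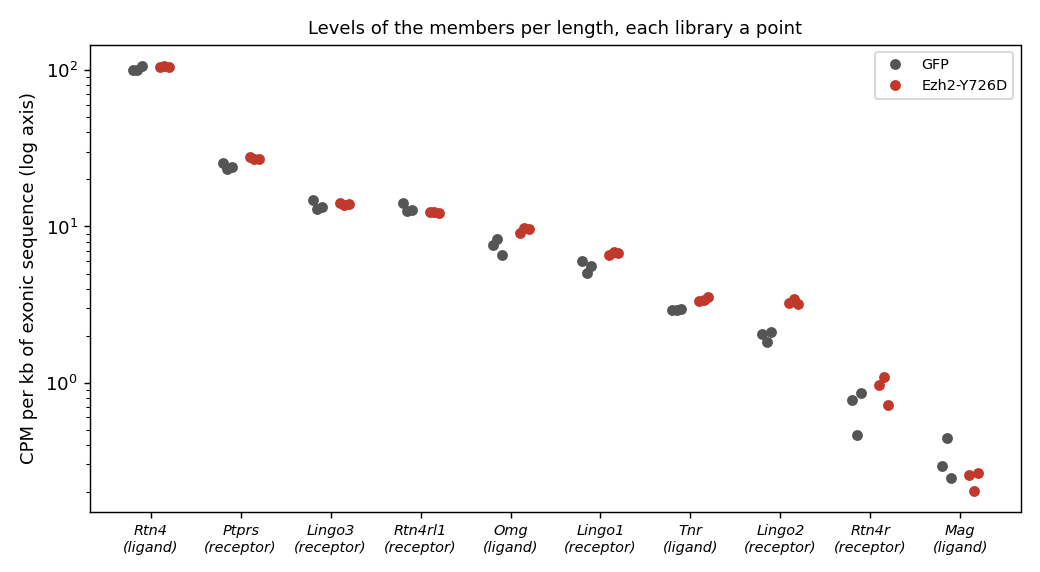
Level of each member in CPM per kilobase of exonic sequence (log y axis), ordered by the mean of the GFP libraries. Each point is 1 library. Rtn4 lies at or above 100.85, Rtn4r and Mag lie below all other members, and the remaining members lie between 1.82 and 27.9.

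Omg (ENSMUSG00000049612, GRCm38 chromosome 11, 79500982 to 79504084, minus strand) encodes the glycoprotein OMgp, which is anchored to the membrane by a lipid. It was at 17.0, 18.4 and 14.6 CPM in GFP replicates 1, 2 and 3 and 20.2, 21.7 and 21.6 CPM in Ezh2-Y726D replicates 1, 2 and 3. All Ezh2-Y726D libraries were higher than all GFP libraries, and the GFP libraries varied more, with a coefficient of variation of 11.7% against 3.91%. The rise was 1.25-fold, a log2 fold change of 0.33 (± 0.078 SE, edgeR adjusted P = 0.00187). GFP replicate 3, the lowest, rested on 88 counts, and with all libraries thinned to the smallest total Omg did not pass (edgeR adjusted P = 0.0936). The whole Omg gene lies inside Nf1 on the opposite strand and shares no exonic base with it, and the strand setting of the count is not given in the sources used here. The kit keeps strand, but if the count ignored it, reads of Omg and of unspliced Nf1 cannot be told apart. Nf1, which encodes the Ras regulator neurofibromin, was at 196, 203 and 213 CPM in GFP, against 214, 219 and 227 CPM after Ezh2-Y726D (log2 fold change 0.11, edgeR adjusted P = 0.0409). Evi2a, another gene within Nf1, fell from 7.78, 6.83 and 6.46 to 5.74, 4.45 and 5.28 CPM (log2 fold change -0.49, edgeR adjusted P = 0.00484). Nf1 lost its call on leaving out GFP replicate 1 or 2 or Ezh2-Y726D replicate 2 or 3 (adjusted P 0.0176 to 0.26 over the 6 such fits), and Evi2a lost it without GFP replicate 1 (edgeR adjusted P = 0.185). Both also lost it when thinned (edgeR adjusted P = 0.118 and 0.155), Nf1 with RLE scaling (0.0511) and with totals without CT010467.1 (0.0926), and Evi2a with DESeq2 (adjusted P = 0.0787).

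Tnr (ENSMUSG00000015829, chromosome 1, 159523769 to 159931729, plus strand) measured 37.7, 37.4 and 37.9 CPM in the GFP libraries, against 43.1, 43.4 and 45.3 CPM for Ezh2-Y726D. The groups did not overlap, and the GFP values were nearly equal, with a coefficient of variation of 0.771%. They rested on 1075, 290 and 229 counts, whose counting error is larger than this spread, so the spread does not measure precision. The rise was 1.17-fold (log2 fold change 0.22 ± 0.057 SE, edgeR adjusted P = 0.00323) and 36.2% of all genes tested changed by more on the log2 scale in either direction. Antisense to Tnr, Gm38039 covers 3.44% of its exonic bases.

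Rtn4 (ENSMUSG00000020458, chromosome 11, 29692947 to 29744331, plus strand) encodes all forms of Nogo, and a count per gene does not separate Nogo-A, the form known for growth inhibition, from the shorter ones. It was at 706, 705 and 743 CPM in GFP, against 732, 745 and 735 CPM after Ezh2-Y726D, and the groups overlapped. Its log2 fold change was 0.04 (95% interval -0.04 to 0.12, edgeR adjusted P = 0.511), the narrowest interval among the members. Eml6, on the other strand, overlaps 18.4% of the exonic bases of Rtn4, and reads there can be told apart only if the count used strand.

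Mag (ENSMUSG00000036634, chromosome 7, 30899176 to 30914873, minus strand) is a sialic acid-binding protein of the innermost myelin layer. It had 34, 14 and 6 counts in the GFP libraries and 28, 17 and 32 counts in the Ezh2-Y726D libraries. In CPM these were 1.19, 1.80 and 0.994, against 1.05, 0.832 and 1.08, with overlap. The log2 fold change of -0.36 had a 95% interval from -0.95 to 0.23 (edgeR adjusted P = 0.402), so a difference of this size was not detectable at this depth. With 1 library left out, the log2 fold change ran from -0.53 to -0.20. Of 14 oligodendrocyte markers, 12 were found, and 4 of them (Sox10, Olig1, Olig2 and Opalin) had at most 1 count in any library. Myrf, a transcription factor of myelinating cells, had 31, 8 and 8 counts in GFP and 28, 16 and 35 counts after Ezh2-Y726D. The summed level of the 12 was 96.1 to 107 CPM in GFP, against 90.0 to 96.6 CPM after Ezh2-Y726D. Most of it came from Cnp, with means of 64.3 CPM in GFP, against 57.5 CPM after Ezh2-Y726D, and Mbp, with 32.5 and 29.2 CPM. Both were called lower, and the other 5 that could be tested were not called. Over all genes tested, 13.6% were called lower. The part of oligodendrocyte transcripts in the levels of Mag, Omg and Rtn4 was not tested.

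Lingo2 (ENSMUSG00000045083, chromosome 4, 35706647 to 36951747, minus strand), a leucine-rich repeat membrane protein, showed the largest change of the 10 members. It measured 17.1, 15.1 and 17.6 CPM in the GFP libraries, against 26.9, 28.6 and 26.5 CPM for Ezh2-Y726D. Every Ezh2-Y726D library lay above every GFP library by more than the whole range within either group. The group means were 16.6 ± 1.33 and 27.4 ± 1.12 CPM (SD, n = 3 libraries each). Lingo2 thus rose by 1.63-fold, or 0.70 on the log2 scale (± 0.073 SE, edgeR adjusted P = 1.25e-08). Only 7.23% of all genes tested had a larger absolute log2 fold change. With 1 library left out, the estimate lay between 0.66 and 0.75.

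Lingo1 (ENSMUSG00000049556, chromosome 9, 56618475 to 56796468, minus strand), the best studied coreceptor of the Nogo receptor, was at 28.2, 23.8 and 26.5 CPM in GFP, against 31.1, 32.2 and 32.1 CPM after Ezh2-Y726D. The groups did not overlap, and the Ezh2-Y726D libraries were the tighter group. The log2 fold change was 0.24 (± 0.066 SE, edgeR adjusted P = 0.00501), a rise of 1.19-fold. Without GFP replicates 2 and 3, the libraries rich in rRNA reads, it was 0.17 and no longer passed (edgeR adjusted P = 0.115), nor did it with all libraries thinned to the smallest total (edgeR adjusted P = 0.119). In the fit without GFP replicates 2 and 3 the single GFP library is assumed to vary like the Ezh2-Y726D libraries.

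Lingo3 (ENSMUSG00000051067, chromosome 10, 80832801 to 80844039, minus strand) was the Lingo member with the highest level per length and showed no difference past the threshold. It was at 52.6, 46.0 and 47.7 CPM in GFP, against 50.3, 49.0 and 49.3 CPM after Ezh2-Y726D, and all Ezh2-Y726D values fell within the range of the GFP libraries. Its log2 fold change was -0.01 with a 95% interval from -0.12 to 0.11 (edgeR adjusted P = 0.962). Estimates with 1 library left out lay on both sides of 0, from -0.05 to 0.08. Lingo4, the remaining paralog, was low, with 10 to 62 counts per library and a log2 fold change of -0.17 (edgeR adjusted P = 0.638).

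Since the scaling of these libraries is affected by rRNA, members were also set against each other within a library, where no scaling factor enters. The pairs were chosen with earlier results known, the numerators over Rtn4 are the 5 members called higher, and no ratio was formed for Mag, Rtn4r or Rtn4rl1, so the ratios describe these members only. Per length, the ratio of Lingo2 to Lingo3 was 0.140, 0.141 and 0.158 in GFP and 0.230, 0.250 and 0.231 after Ezh2-Y726D. The ratio of Lingo2 to Lingo1 was 0.345, 0.359 and 0.377 in GFP and 0.492, 0.505 and 0.469 after Ezh2-Y726D. Within the family, Lingo2 thus took a larger part relative to both paralogs in every Ezh2-Y726D library. The ratio of Lingo1 to Lingo3 was also higher in all Ezh2-Y726D libraries (0.405 ± 0.0141 against 0.485 ± 0.0153, SD, n = 3 libraries each, exact 2-sided permutation P = 0.1). Relative to Rtn4, the member with the most counts, Omg, Tnr, Lingo1 and Lingo2 were higher without overlap, by 0.31, 0.18, 0.24 and 0.69 on the log2 scale. The ratio of Ptprs to Rtn4 overlapped between the groups, with 0.253, 0.230 and 0.225 in GFP and 0.267, 0.252 and 0.256 after Ezh2-Y726D (exact 2-sided permutation P = 0.2). Of the 8 ratios computed, the other 7 each had an exact permutation P of 0.1, the smallest that 3 libraries against 3 allow, and 0.114 when adjusted over the 8.

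**Figure D3:**
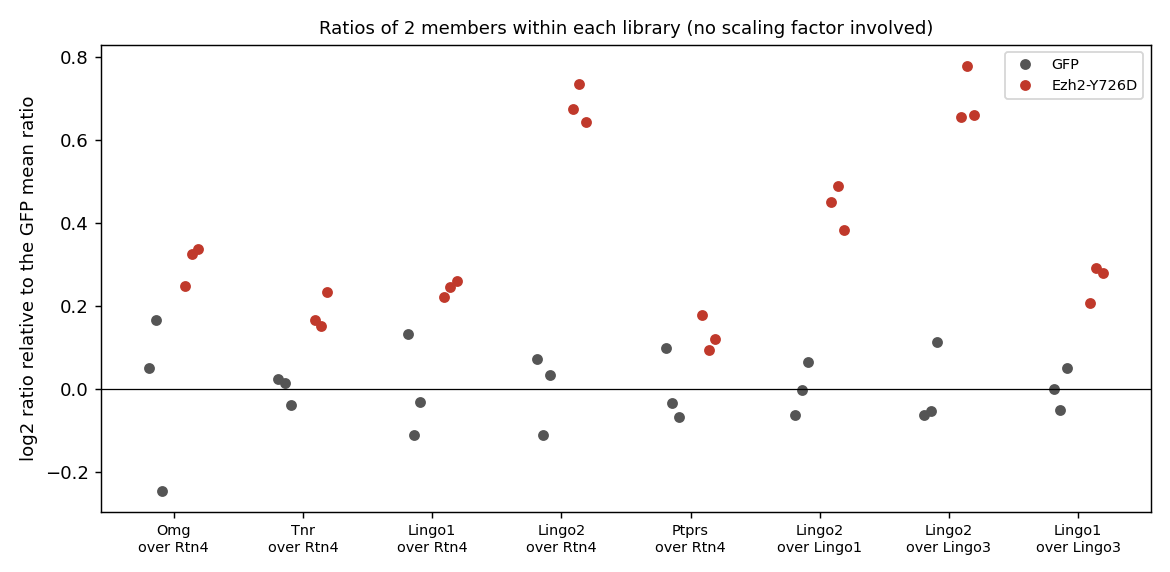
Ratios of the per-length counts of 2 members within each library, on a log2 scale relative to the mean ratio of the GFP libraries (y axis). Each point is 1 library. All pairs but Ptprs over Rtn4 show Ezh2-Y726D points above every GFP point, and the gap is widest for Lingo2 over Rtn4 and over Lingo3.

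Next came the receptors that bind the inhibitors themselves. Ptprs (ENSMUSG00000013236, chromosome 17, 56412426 to 56476483, minus strand) encodes the receptor phosphatase PTPσ. It was at 382, 348 and 358 CPM in GFP, against 418, 402 and 404 CPM after Ezh2-Y726D. The groups did not overlap, and the rise of 1.12-fold (log2 fold change 0.17 ± 0.041 SE, edgeR adjusted P = 0.00278) was the smallest of those that passed the test. Without GFP replicates 2 and 3 it was 0.10 and did not pass (edgeR adjusted P = 0.19), the other receptor besides Lingo1 whose call was lost there.

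Rtn4r (ENSMUSG00000043811, chromosome 16, 18127642 to 18152408, plus strand), the Nogo receptor itself, was barely detected. It had 43, 7 and 10 counts in GFP and 50, 43 and 41 counts after Ezh2-Y726D, that is 1.51, 0.902 and 1.66 CPM against 1.88, 2.10 and 1.39 CPM. The groups overlapped. The log2 fold change of 0.33 had a 95% interval from -0.21 to 0.86 (edgeR adjusted P = 0.405), and it moved between 0.19 without GFP replicate 2 and 0.51 without GFP replicate 1. Rtn4rl1 (ENSMUSG00000045287, chromosome 11, 75193783 to 75267769, plus strand), also called NgR3, was far more abundant than Rtn4r. It was at 49.7, 44.0 and 44.9 CPM in GFP, against 43.4, 43.7 and 42.9 CPM after Ezh2-Y726D, so that every Ezh2-Y726D library was just below every GFP library. The log2 fold change was -0.12 (95% interval -0.24 to -0.0014) and missed the threshold (edgeR adjusted P = 0.133). Without GFP replicates 2 and 3 it was -0.20 and passed (edgeR adjusted P = 0.0262), whereas without GFP replicate 1, the highest library, it was -0.04 (edgeR adjusted P = 0.782).

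Among 33 other genes of the pathway, 12 were called higher and 6 lower, with a median log2 fold change of 0.06, beside 13.9% higher and 13.6% lower over all genes tested. The groups within this list are small, and their counts are given as a description only. Of 11 other receptors and coreceptors, 2 were higher and 3 lower. Ptprf, the LAR phosphatase related to Ptprs, rose by 0.46 on the log2 scale, with group means of 224 ± 8.63 and 310 ± 13.6 CPM (SD, n = 3 libraries each, edgeR adjusted P = 1.32e-09). Adgrb1, an adhesion receptor that binds Nogo receptors, rose by 0.44 on the log2 scale (edgeR adjusted P = 2.62e-07). Rtn4rl2, the homologue NgR2 that binds MAG, fell from 8.51, 7.73 and 9.61 CPM in GFP to 6.30, 5.33 and 6.40 CPM after Ezh2-Y726D, a log2 fold change of -0.49 (edgeR adjusted P = 0.00214). With all libraries thinned to the smallest total, Rtn4rl2 did not pass (edgeR adjusted P = 0.158).

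Of the receptors that signal with the Nogo receptor besides Lingo1, Ngfr and Tnfrsf19 did not pass the test. Ngfr, which encodes p75, was at 101, 106 and 95.1 CPM in GFP, against 112, 104 and 102 CPM after Ezh2-Y726D, with a log2 fold change of 0.07 (edgeR adjusted P = 0.269). Tnfrsf19, which encodes TROY, was at 3.31 to 3.86 CPM in GFP, against 3.30 to 3.79 CPM after Ezh2-Y726D (edgeR adjusted P = 0.991). Pirb, an inhibitory immune receptor that also binds Nogo, MAG and OMgp, had the largest fall of the pathway. It was at 16.7, 19.1 and 22.4 CPM in GFP, against 7.77, 10.8 and 11.0 CPM after Ezh2-Y726D, a log2 fold change of -0.90 (edgeR adjusted P = 3.85e-07), and was a DEG, among 5.5% of all genes that were DEGs in this direction. Pirb is known from myeloid cells. All 7 markers of microglia and macrophages were called lower as well, beside 13.6% of all genes tested. Their summed level was 675 to 758 CPM in GFP, against 390 to 450 CPM after Ezh2-Y726D. Their part in the fall of Pirb was not tested. In such sorted bulk samples, fewer cells of a type and less RNA per cell cannot be told apart.

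Of 3 other ligands and antagonists of the Nogo receptor, 2 rose. Crtac1, which encodes the Nogo receptor antagonist LOTUS, was at 10.2, 9.27 and 9.28 CPM in GFP, against 15.5, 16.4 and 15.8 CPM after Ezh2-Y726D, a rise of 1.62-fold (log2 fold change 0.69, edgeR adjusted P = 5.75e-07). It was the only DEG among the 12 pathway genes that rose. Lgi1, a secreted protein that competes with myelin inhibitors for the Nogo receptor, rose from 2.59, 2.32 and 2.15 to 3.42, 4.16 and 3.55 CPM (log2 fold change 0.58, edgeR adjusted P = 0.0154). Lgi1 lost its call in 6 of 15 alternatives. Among them were the fits without GFP replicate 1 (edgeR adjusted P = 0.0548), without Ezh2-Y726D replicate 2 (edgeR adjusted P = 0.0698) and with DESeq2 (adjusted P = 0.11). Over all alternatives its adjusted P ran from 0.0103 to 0.297. Of the 3 reticulon paralogs of Rtn4, 2 were called higher and 0 lower. Of 3 enzymes that make the gangliosides bound by MAG, 1 was higher.

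Rhoa, the GTPase on which these receptors converge, was at 106, 103 and 103 CPM in GFP, against 94.3, 99.5 and 94.3 CPM after Ezh2-Y726D. The groups did not overlap, and the log2 fold change was -0.12 (edgeR adjusted P = 0.037). The call was lost without GFP replicate 1, Ezh2-Y726D replicate 1 or Ezh2-Y726D replicate 3 (edgeR adjusted P = 0.207, 0.111 and 0.151), with DESeq2 (adjusted P = 0.126), with no filter (edgeR adjusted P = 0.141) and without both GFP libraries rich in rRNA (edgeR adjusted P = 0.059).

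**Figure D4:**
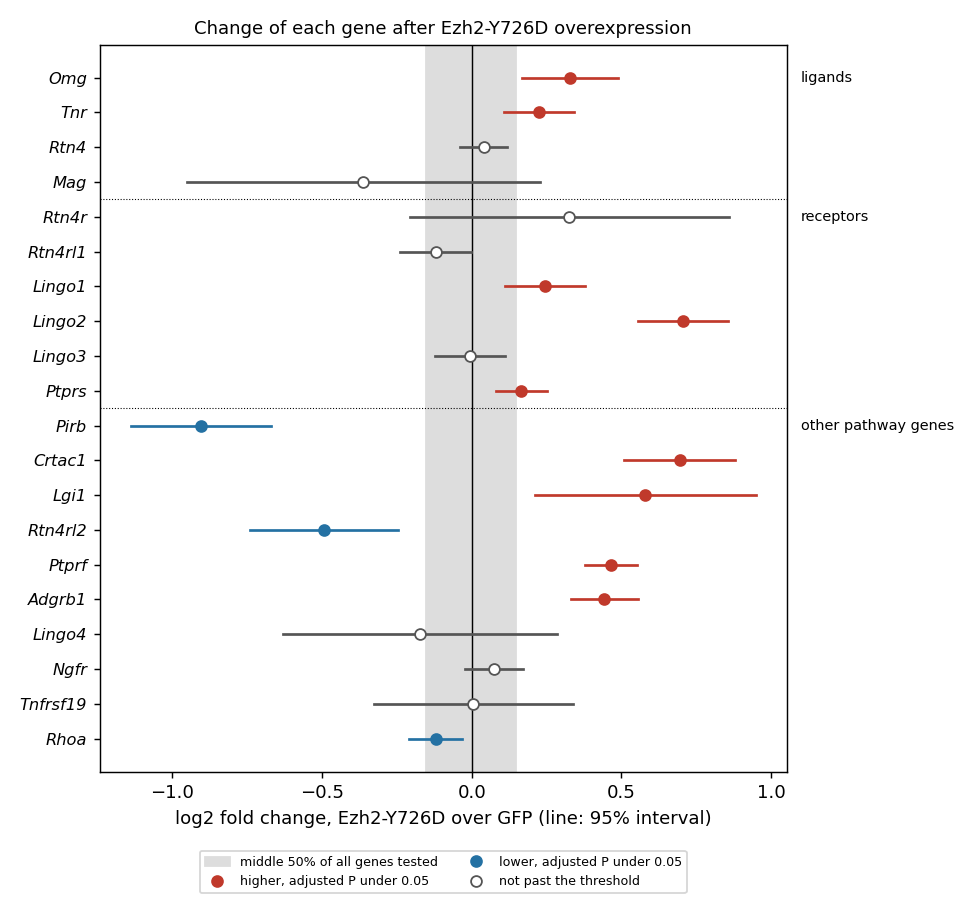
Log2 fold change of Ezh2-Y726D over GFP (x axis) for the members and other named pathway genes, with 95% intervals from edgeR. Filled points passed an adjusted P under 0.05, and the grey band spans the middle 50% of all genes tested. Lingo2 (0.70) and Crtac1 (0.69) lie farthest to the right and Pirb (-0.90) farthest to the left.

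The cells behind these values were checked by marker lists. All 9 RGC markers were measured, with a summed level of 418 to 430 CPM in GFP, against 413 to 449 CPM after Ezh2-Y726D. Of them, 2 were called higher and 0 lower by edgeR, beside 13.9% and 13.6% of all genes tested. Most of the sum came from Nefl, Thy1, which encodes the sorted antigen, and Slc17a6, with GFP means of 144, 105 and 80.5 CPM. Pou4f2 and Isl2 were low, with GFP means of 1.76 and 0.939 CPM, so the sum says little about them. The libraries also held Müller glia markers (summed level 7657 to 8017 CPM in GFP and 6338 to 6526 CPM for Ezh2-Y726D), so a member's count need not come from RGCs. Most of that fall was in Apoe (3095 to 1980 CPM on average), and the median log2 fold change of the list was -0.07. All 6 amacrine markers were higher after Ezh2-Y726D, with a summed level of 1066 to 1108 CPM against 630 to 704 CPM, and all 6 bipolar (632 to 652 against 852 to 868 CPM) and all 5 cone markers (227 to 238 against 343 to 359 CPM) were lower. Of the Müller glia markers 1 of 6 was higher and 2 lower. None of the markers of astrocytes, endothelial cells, pericytes, horizontal cells or oligodendrocyte precursors was called higher. Of the tested ones, 2 of 4, 2 of 4, 3 of 4, 0 of 3 and 0 of 2 were called lower, in that order. Over all genes tested 13.9% were called higher and 13.6% lower, and the counts of these small lists are a description only. Amacrine markers rose by a median of 0.65 on the log2 scale, beside 0.70 for Lingo2, 0.33 for Omg and 0.22 for Tnr. The part of these other cells in the members' changes was not tested.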

How the data were processed

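RNA-Seq libraries were prepared with the TruSeq Stranded Total RNA Kit, and the authors aligned reads with STAR 2.7.0d to GRCm38, per the labels. The authors deposited 1 table of raw counts per gene for the 6 libraries. The counting tool and its strand setting are not given in the sources used here. Positions and exonic lengths came from GENCODE vM21, which matched 32342 of 32371 rows. Symbols came from a separate list of gene names, which named 32325 rows. Genes that passed filterByExpr (minimum count 10, minimum total 15) were tested with edgeR 4.0.16 (R 4.3.3), using TMM scaling, a quasi-likelihood F test and Benjamini-Hochberg adjustment over 18138 genes. The standard error (SE) was |log2 fold change|/sqrt(F). DEGs changed by over 1.5-fold with adjusted P below 0.05. The code was tested on simulated data. Members, gene lists and cell type markers were chosen with earlier results of these data known, so no list is independent evidence. The results of 2 of the lists are not reported here. The text names all members, the targeted gene, the Nf1 locus, the fixed coreceptors and Rhoa, and the pathway genes with the largest called changes. Total counts were 9333244 to 23782520 per library, and 4460732 to 22024582 without CT010467.1. At these depths 3 counts are worth 0.102 to 0.497 CPM. Counting error alone sets these limits. Replicate pairs within a group differed by more than sampling noise (chi-square per degree of freedom 1.49 to 3.03). The alternatives were RLE scaling, scaling by totals with and without CT010467.1, DESeq2 1.42.0, no filter, a stricter filter, a replicate block, leaving out each library or both GFP libraries rich in rRNA, and thinning.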

Additional observations from a re-analysis of the deposited data

How the results depend on the processing

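Scaling by library totals left 0 members higher, 0 members as DEGs, and 0 pathway genes higher and 0 lower by edgeR. At an unadjusted P under 0.05, 2 members and 7 pathway genes were higher there, and 0 of either were lower, while 46 genes were higher and 19 lower in all. That scaling shifted the median of all genes by 0.49, and with it the log2 fold changes of Mag (0.062), Rtn4rl1 (0.38), Lingo4 (0.29), Rhoa (0.38) and Evi2a (0.0094) became positive but stayed below that median, while Lingo3 (0.50) lay at it. Without both GFP libraries rich in rRNA, 3 members were higher and 1 was lower (Rtn4rl1), as Lingo1 and Ptprs lost their calls. Thinned to the smallest total, 3 members were higher, and Omg (0.28, adjusted P = 0.0936 from edgeR) and Lingo1 (0.21, adjusted P = 0.119 from edgeR) were lost, as was the pathway gene Rtn4rl2 (-0.38, adjusted P = 0.158 from edgeR). Thinning discards counts, and the share of all genes tested that were called was 22.6% there, against 27.5% in the main fit. The cause of each single loss was not tested. Lingo3 was slightly positive with DESeq2 (0.0060), with no filter (0.0061) and with a replicate block (0.0045), and it ran from -0.046 to 0.082 when 1 library was left out. Tnfrsf19 was negative with totals without CT010467.1 (-0.017) and a replicate block (-0.026), and ran from -0.040 to 0.066 when 1 library was left out. Leaving out 1 library kept 5 members higher, 0 lower and 1 DEG in each of the 6 fits, and gave 9 to 11 pathway genes higher and 4 to 6 lower. The replicate block gave 5 members higher and 0 lower, and 2675 genes higher and 2548 lower in all. For each gene, the deviation of each library's log2 CPM from its group mean was taken. Between GFP and Ezh2-Y726D libraries of the same number, these deviations correlated at 0.176, 0.0635 and 0.046. Each library's deviations correlated best with those of its own number, but the numbers were not taken to pair the libraries. DESeq2 called 5 members higher and 0 lower, but 8 pathway genes higher and 4 lower, against 12 and 6 in the main fit. Depth limits Mag and Rtn4r most, with 6 to 50 counts per library.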
